A study of Homo sapiens with 12 samples.

Results

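The 7 genes described here are the metal-responsive genes *MT1E*, *MT1F*, *MT1G*, *MT1M*, *MT1X* and *MT2A*, which encode metallothioneins, and *SLC30A1*, which encodes the zinc exporter ZnT1. They were chosen by name, as 7 of the 58302 genes with a row in the count table, and their symbols were read from the Ensembl identifiers. Each of the 7 had a count in at least 1 library, and 5 of them passed the filter on low counts together with 17849 genes in all. *MT1G* and *MT1M* did not pass.

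Total RNA of 12 cultures labelled as the human lung squamous cell carcinoma line NCI-H520 was sequenced, and the labels give 4 groups of 3. The first group carried *L1-FGGY* stably from a lentivirus and received 0.2% DMSO. The second was the same L1-FGGY line with 10 μM ML355, an inhibitor of 12-lipoxygenase, and the third is labelled as that line with 450 μM NVR, a reverse transcriptase inhibitor. The fourth, CTRL DMSO, was labelled as a control with 0.2% DMSO and was read as the line with an empty vector. Medium with the compound was given 5 h after seeding, and the length of the treatment is not given in the sources used here. No source used here says whether the 3 cultures of a group were set up independently, so that the p-values measure the spread between these libraries, which may be technical.

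*FGGY* went against 1 of these labels. It had 4782 to 6196 counts in L1-FGGY cells with DMSO and 5080 to 7346 with ML355, but 82 to 103 in the NVR group against 78 to 91 in CTRL DMSO. The third group is therefore called the libraries labelled NVR (or NVR-labelled libraries), and it was set against CTRL DMSO as well as against L1-FGGY cells with DMSO. The squamous and epithelial markers split the libraries in the same way. *KRT17* had 16304 to 97372 counts in L1-FGGY cells with DMSO or ML355 and 1 to 6 in the other 6 libraries, and *SOX2* had 0 counts in the former and 128 to 446 in the latter. The squamous markers *KRT6A* and *DSG3* were at 0 in all 12 libraries and *KRT5* had at most 3 counts. Over the 8 markers the summed level was 938 to 978 CPM (counts scaled by TMM to a common library size) in L1-FGGY cells with DMSO, 3134 to 4807 CPM with ML355, 18.1 to 31.0 CPM in the NVR-labelled libraries and 48.2 to 57.6 CPM in CTRL DMSO. *KRT17* carried this sum in L1-FGGY cells. Without it the sum was 8.42 to 11.0 CPM with DMSO, 8.72 to 10.5 CPM with ML355, 17.996 to 30.9 CPM in the NVR-labelled libraries and 48.0 to 57.4 CPM in CTRL DMSO. *CDH1* had at most 9 counts in L1-FGGY cells and 148 to 905 in the other 6 libraries, *TP63* had 1 to 16 against 34 to 108, and *EPCAM* had 146 to 195 against 14 to 48. In any comparison across these 2 sets of 6 libraries, *L1-FGGY* and whatever else differs between the sets cannot be told apart. Whether both sets come from the same cell line, or whether labels were exchanged, was not tested, and the groups are named here by their labels only. Total counts ran from 16242082 to 27004768 per library.

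Metallothioneins are small cysteine-rich proteins that bind zinc, copper and cadmium and buffer free zinc in the cell. Their genes lie side by side in 1 cluster and are switched on by MTF1, a zinc finger protein that senses zinc and binds short metal response elements in promoters. ZnT1 sits in the plasma membrane, carries zinc out of the cell, and is a known target of the same factor. Metallothionein genes are also known to respond to glucocorticoids and to oxidative stress.

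In GENCODE 44 (GRCh38) the metallothionein members lie on chromosome 16. *MT2A* (ENSG00000125148) runs from 56608584 to 56609497, *MT1E* (ENSG00000169715) from 56625475 to 56627112, *MT1M* (ENSG00000205364) from 56632659 to 56633981, *MT1F* (ENSG00000198417) from 56657731 to 56660698 and *MT1X* (ENSG00000187193) from 56682470 to 56684196, all on the plus strand. *MT1G* (ENSG00000125144) lies between *MT1F* and *MT1X*, from 56666730 to 56668065, on the minus strand. *SLC30A1* (ENSG00000170385) lies on chromosome 1 from 211571568 to 211579161, on the minus strand.

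RefSeq promoters (GRCh38.p14) were at hand for 3 of the 7 members, *MT2A*, *MT1X* and *SLC30A1*, and are shown because these genes had the same factor as their known regulator and different patterns across the libraries. The 250 bases before each transcription start are printed 5′ to 3′ on the strand of the gene, and capitals mark the core of the metal response element, TGCGCNC or TGCACNC, on either strand. These are chr16:56608334-56608583 for *MT2A*, chr16:56682220-56682469 for *MT1X* and chr1:211579162-211579411 (minus strand) for *SLC30A1*.
MT2A: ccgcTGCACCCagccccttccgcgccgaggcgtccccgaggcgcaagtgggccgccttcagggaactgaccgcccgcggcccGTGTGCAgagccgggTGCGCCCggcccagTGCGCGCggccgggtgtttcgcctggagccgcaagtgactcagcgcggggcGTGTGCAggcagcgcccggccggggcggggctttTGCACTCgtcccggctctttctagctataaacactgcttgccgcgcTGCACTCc
MT1X: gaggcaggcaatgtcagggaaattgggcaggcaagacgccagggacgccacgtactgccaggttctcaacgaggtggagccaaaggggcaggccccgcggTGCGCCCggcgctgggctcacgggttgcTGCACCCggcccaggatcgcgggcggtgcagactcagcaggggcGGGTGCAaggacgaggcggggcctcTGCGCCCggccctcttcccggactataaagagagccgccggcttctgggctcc
SLC30A1: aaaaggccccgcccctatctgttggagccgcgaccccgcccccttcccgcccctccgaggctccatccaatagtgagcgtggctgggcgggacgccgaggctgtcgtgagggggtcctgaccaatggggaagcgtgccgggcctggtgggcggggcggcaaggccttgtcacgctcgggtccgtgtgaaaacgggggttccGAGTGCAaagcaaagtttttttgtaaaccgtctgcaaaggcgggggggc
The *MT2A* window held 7 matches, 5 of them on the strand of the gene. The *MT1X* window held 4 matches and the *SLC30A1* window 1. No matches overlapped each other in these windows. Of all 35116 promoter windows of this length, 24.8% held at least 1 match, 0.37% at least 4 and 0.0313% at least 7. Among the other metallothionein genes, the windows of *MT1H*, *MT1B* and *MT4* held 8, 3 and 3 matches. *MT1H* and *MT1B* had 0 counts in all 12 libraries, and *MT4* had at most 15. A match describes the letters only and is not a measured binding site.

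*MT2A* was by far the most abundant metallothionein RNA in these libraries. Its level was 467, 484 and 440 CPM in replicates 1 to 3 of L1-FGGY cells with DMSO. With ML355 it was 1230, 895 and 793 CPM. In the libraries labelled NVR it was 2532, 1700 and 3599 CPM, and in CTRL DMSO 949, 686 and 599 CPM. Every ML355 library thus lay above every L1-FGGY library with DMSO, and every library labelled NVR above all 9 others. The ranges of ML355 and CTRL DMSO overlapped. Per length of exon, *MT2A* stood at 507 ± 24.2 CPM per kb (SD, n = 3) in L1-FGGY cells with DMSO, where it ranked 44 to 49 among all genes, and at 2856 ± 1041 CPM per kb (SD, n = 3) in the NVR-labelled libraries, where it ranked 10 to 13.

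*MT1E*, a second metallothionein with the same metal-binding role, was found in 1 set of libraries only. It had 1376, 1386 and 1461 counts in L1-FGGY cells with DMSO and 2353, 1975 and 1734 with ML355. It had 0 counts in each of the 3 libraries labelled NVR and each of the 3 CTRL DMSO libraries, and a count of 0 allows up to 3 counts, or 0.111 to 0.138 CPM at these depths before TMM scaling. Such intervals cover counting error only. *MT1F* and *MT1X* are further metallothioneins. *MT1F* had 33, 29 and 47 counts in L1-FGGY cells with DMSO and 22, 6 and 20 with ML355. It had 480, 470 and 515 in the NVR-labelled libraries and 293, 245 and 243 in CTRL DMSO. The 4 groups did not overlap in CPM, from ML355 as the lowest to the libraries labelled NVR as the highest. *MT1X* had 11, 15 and 5 counts in L1-FGGY cells with DMSO and 180, 55 and 125 with ML355. It had 325, 327 and 423 in the NVR-labelled libraries and 127, 96 and 99 in CTRL DMSO. In CPM the ranges of ML355 and CTRL DMSO overlapped, and the other groups stood apart. *MT1G* had 1 count in 2 libraries, 1 of them L1-FGGY with DMSO and 1 with ML355, and *MT1M* had 1 count in 1 CTRL DMSO library, so that neither was detectable beyond the limit of 3 counts in any library.

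The metallothioneins are close copies of each other, and how reads that fit several copies were counted is not given in the sources used here. The counts of single copies are therefore uncertain, and the 6 metallothionein members were also summed. The sum was 541 ± 22.3 CPM (SD, n = 3) in L1-FGGY cells with DMSO, 1083 ± 243 CPM with ML355, 2651 ± 963 CPM in the NVR-labelled libraries and 759 ± 185 CPM in CTRL DMSO. *MT2A* made up 85.2% to 86.5% of the sum in L1-FGGY cells with DMSO and 88.9% to 90.7% with ML355. It made up 97.9% to 98.6% in the other 6 libraries. *MT1E* supplied most of the remainder in L1-FGGY cells, at 13.9% ± 0.742 (SD, n = 3) of the sum with DMSO and 9.65% ± 0.952 with ML355.

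*SLC30A1* was higher in L1-FGGY cells with DMSO or ML355 than in the other 6 libraries, as *MT1E* was. It was at 226, 199 and 208 CPM in L1-FGGY cells with DMSO and at 209, 248 and 262 CPM with ML355. It was at 29.3, 34.2 and 22.4 CPM in the NVR-labelled libraries and at 21.7, 31.6 and 31.2 CPM in CTRL DMSO. The ranges overlapped within each pair of groups and were far apart between the pairs. *MT2A* was 2.07 to 2.43 times as high as *SLC30A1* in CPM in L1-FGGY cells with DMSO, 3.02 to 5.89 times with ML355, 19.2 to 43.7 times in CTRL DMSO and 49.7 to 161 times in the NVR-labelled libraries.

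**Figure D1:**
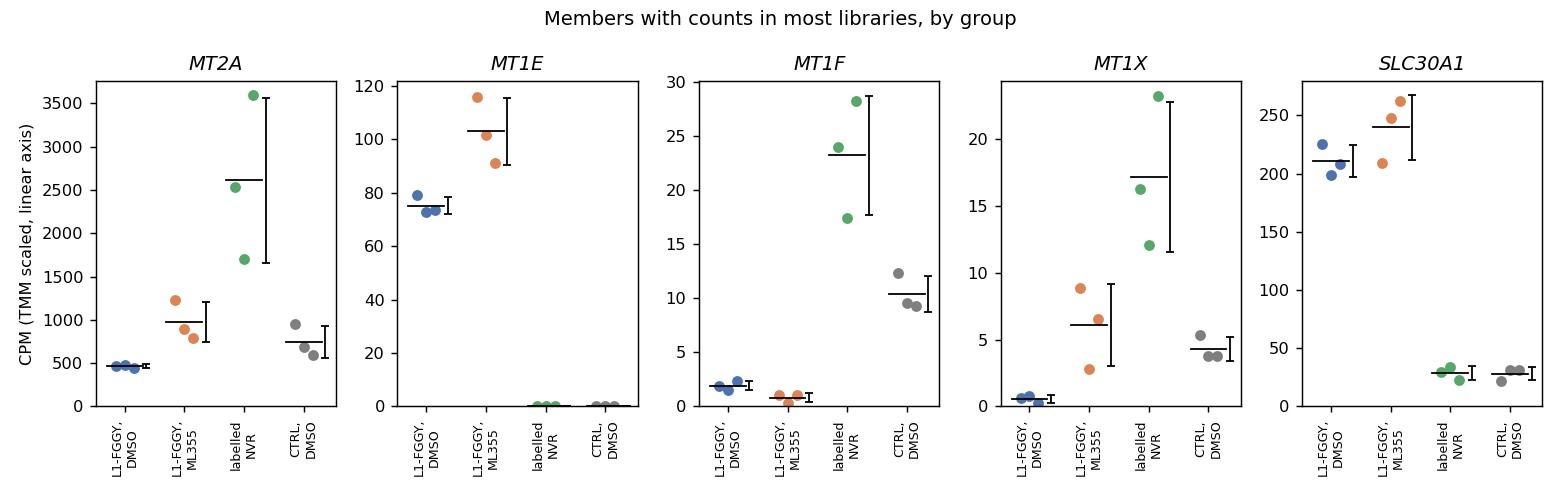
The level of the 5 members that passed the low-count filter, in CPM scaled by TMM on a linear axis, with 1 point per library, the group mean as a line and the SD (n = 3) as a bar. *MT2A* is highest in the NVR-labelled libraries (1700 to 3599 CPM), *MT1E* is at 0 in 6 libraries, and *SLC30A1* is at 199 to 262 CPM in L1-FGGY cells and 21.7 to 34.2 CPM in the others.

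**Figure D2:**
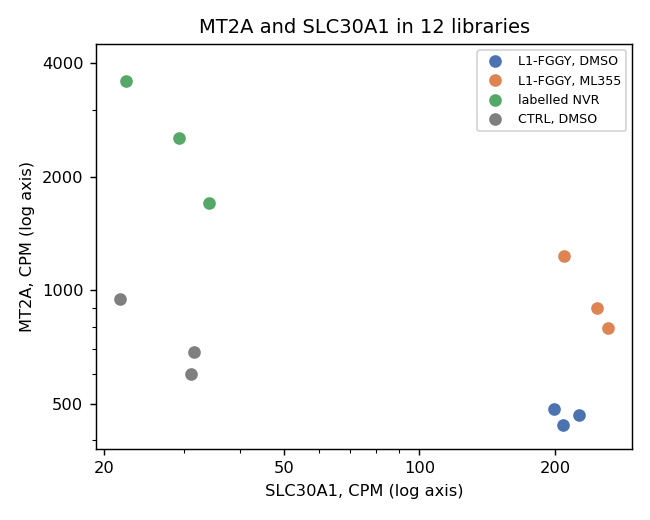
*MT2A* against *SLC30A1* in the 12 libraries, both in CPM scaled by TMM on log axes, with 1 point per library coloured by group. The L1-FGGY libraries with DMSO or ML355 lie to the right, at 199 CPM or more of *SLC30A1*, and the other 6 libraries lie to the left, at 34.2 CPM or less.

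ML355 was compared with DMSO in L1-FGGY cells to see which members differed with the 12-lipoxygenase inhibitor. Of the 5 members tested, *MT2A*, *MT1E* and *MT1X* rose, *MT1F* fell and *SLC30A1* did not pass the test. Across all genes tested 44.8% were called, 21.3% as higher and 23.5% as lower, so that calls were common in this comparison, and the median log2 fold change was 0.45 over the 5 members and 0.00 over all genes. *MT1X* rose from 0.557 ± 0.276 to 6.09 ± 3.05 CPM (SD, n = 3 each), a log2 fold change of 3.45 (SE 0.46, adjusted p = 1.07e-05 by the edgeR quasi-likelihood test). *MT2A* rose by 1.07 on the log2 scale (SE 0.24, adjusted p = 0.00108 in edgeR), from 464 ± 22.1 to 973 ± 229 CPM. *MT1E* rose from 75.1 ± 3.30 to 103 ± 12.5 CPM, by 0.45 on the log2 scale (SE 0.12, adjusted p = 0.0066 in edgeR). *MT1F* fell by 1.24 on the log2 scale (SE 0.36, adjusted p = 0.00833 in edgeR), from 1.93 ± 0.423 to 0.815 ± 0.438 CPM. *SLC30A1* had a log2 fold change of 0.18 (SE 0.16, adjusted p = 0.334 in edgeR), with a 95% interval from -0.12 to 0.49.

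Within ML355, replicate 2 stood lowest for *MT1F* and *MT1X*. Without it the log2 fold change of *MT1F* was -0.85 (edgeR adjusted p = 0.0378), and the members called were 2 instead of 4, as they also were without replicate 1 or 3 of L1-FGGY cells with DMSO. The call of *MT1E* was lost when counts were scaled by the library size alone, at a log2 fold change of 0.33 (adjusted p = 0.0587), and without any 1 library of either group except ML355 replicate 3 (adjusted p from 0.015 to 0.033), or without CTRL DMSO replicate 2 or NVR replicate 1 (adjusted p = 0.0109 for each). The call of *MT1F* was lost with voom (adjusted p = 0.0394), in a fit of the 2 groups alone (adjusted p = 0.019) and without ML355 replicate 3 (adjusted p = 0.0108). It was also lost in each of the fits above that called 2 members, where *MT2A* and *MT1X* kept theirs. In bulk RNA, more RNA per cell and more cells of a kind cannot be told apart.

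The libraries labelled NVR were compared with CTRL DMSO, the group nearest to them in *FGGY*. *MT2A*, *MT1F* and *MT1X* were higher in the NVR-labelled libraries, *SLC30A1* did not pass the test, and *MT1E* was at 0 in both groups and has no fold change. Of all genes tested 29.8% were called, 14.5% as higher and 15.3% as lower. These were 5316 genes, and without CTRL DMSO replicate 2 the number was 3506. The median log2 fold change was 1.15 over the 5 members, *MT1E* at 0 included, and 0.00 over all genes. The higher calls were 48.8% of all calls, against 36.3% when counts were scaled by the library size alone. *MT1X* was at 17.2 ± 5.61 CPM against 4.30 ± 0.905 CPM (SD, n = 3 each), a log2 fold change of 1.996 (SE 0.34, adjusted p = 0.000212 in edgeR). *MT2A* was at 2610 ± 952 against 745 ± 183 CPM, with a log2 fold change of 1.81 (SE 0.24, adjusted p = 2.42e-05 in edgeR). *MT1F* was at 23.2 ± 5.47 against 10.4 ± 1.66 CPM, with a log2 fold change of 1.15 (SE 0.23, adjusted p = 0.000939 in edgeR). None of the 3 genes overlapped between the groups, and the share of all genes without overlap was not counted. *SLC30A1* had a log2 fold change of 0.03 (SE 0.16, adjusted p = 0.917 in edgeR), with a 95% interval from -0.29 to 0.35. The direction for *SLC30A1* turned under library size alone, at -0.12.

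The TMM factor and the length of the genes moved with these levels. The factor was 1.07 to 1.09 in L1-FGGY cells with DMSO, 0.964 to 1.04 with ML355, 0.828 to 1.00 in the NVR-labelled libraries and 0.974 to 1.06 in CTRL DMSO. The median change was higher for short genes than for long ones in both comparisons. The median log2 fold change of the 4427 genes with at most 2473 bases of exon, among which the 4 metallothionein members tested fall, was 0.13 with ML355 and 0.28 in the NVR-labelled libraries. For the 4425 genes with the longest exons, which start at 7387 bases, it was -0.12 and -0.17. Between L1-FGGY cells with DMSO and CTRL DMSO these medians were -0.48 for the short and 0.20 for the long genes, and between the libraries labelled NVR and L1-FGGY cells with DMSO 0.76 and -0.41. The change of *MT2A* lay above that of 76.2% of the short genes with ML355 and of 94.6% in the NVR-labelled libraries. That of *MT1X* lay above 96.9% and 96.1% of them, and that of *MT1F* above 20.3% and 83.3%. The part of length or scaling in the members' changes was not tested beyond these values.

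The changes in these 2 comparisons were then tested against each other, as the ML355 change minus the change of the libraries labelled NVR. *MT1F* differed, at -2.39 on the log2 scale (SE 0.43, adjusted p = 0.000282 in edgeR), since it fell in the former and was higher in the latter. Of all genes 34.1% were called, 17.3% with a positive and 16.8% with a negative difference. *MT1X* had a difference of 1.46 (SE 0.59, adjusted p = 0.0537 in edgeR) and *MT2A* one of -0.74 (SE 0.33, adjusted p = 0.0777 in edgeR), and neither passed the test. *MT1X* passed without ML355 replicate 2 (adjusted p = 0.00684) and *MT2A* without NVR replicate 2 (adjusted p = 0.00529). *SLC30A1* had a difference of 0.16 (SE 0.23, adjusted p = 0.608 in edgeR), and *MT1E* gave no estimate, being at 0 in the NVR-labelled libraries and CTRL DMSO. This difference crosses the DMSO groups as well as the compounds.

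Across the 2 sets of libraries, L1-FGGY cells with DMSO were compared with CTRL DMSO. *MT1E* and *SLC30A1* were higher in L1-FGGY cells, *MT1F* and *MT1X* were lower, and *MT2A* did not pass the test, where 68.7% of all genes were called, 32.5% as higher and 36.2% as lower. *MT1E* was at least 595-fold higher against the limit of 3 counts per library. *SLC30A1* was at 211 ± 13.7 against 28.2 ± 5.59 CPM (SD, n = 3 each), a log2 fold change of 2.90 (SE 0.17, adjusted p = 2.18e-10 in edgeR). *MT1X* was lower at a log2 fold change of -2.94 (SE 0.47, adjusted p = 2.72e-05 in edgeR) and *MT1F* at -2.42 (SE 0.28, adjusted p = 6.99e-07 in edgeR). *MT2A* had a log2 fold change of -0.68 (SE 0.23, adjusted p = 0.0144 in edgeR) without overlap between the groups, and it passed with no filter on low counts (adjusted p = 7.61e-05), in a fit of these 2 groups alone (adjusted p = 0.000577), with DESeq2 (adjusted p = 0.00452) and without CTRL DMSO replicate 3 (adjusted p = 0.00815) or NVR replicate 2 (adjusted p = 0.00239) or 3 (adjusted p = 0.00318). The median log2 fold change of all genes in this comparison was -0.11.

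The libraries labelled NVR also have L1-FGGY cells with DMSO as the control their label names, which is the control of the ML355 comparison too. All 5 members tested were called there, 3 as higher and 2 as lower, beside 73.6% of all genes, 38.2% as higher and 35.4% as lower. The log2 fold change was 4.94 for *MT1X* (SE 0.45, adjusted p = 3.13e-08 in edgeR), 3.58 for *MT1F* (SE 0.28, adjusted p = 5.09e-09 in edgeR) and 2.49 for *MT2A* (SE 0.25, adjusted p = 9.53e-08 in edgeR). It was -2.88 for *SLC30A1* (SE 0.17, adjusted p = 1.94e-10 in edgeR), and *MT1E* was at least 457-fold lower.

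**Figure D3:**
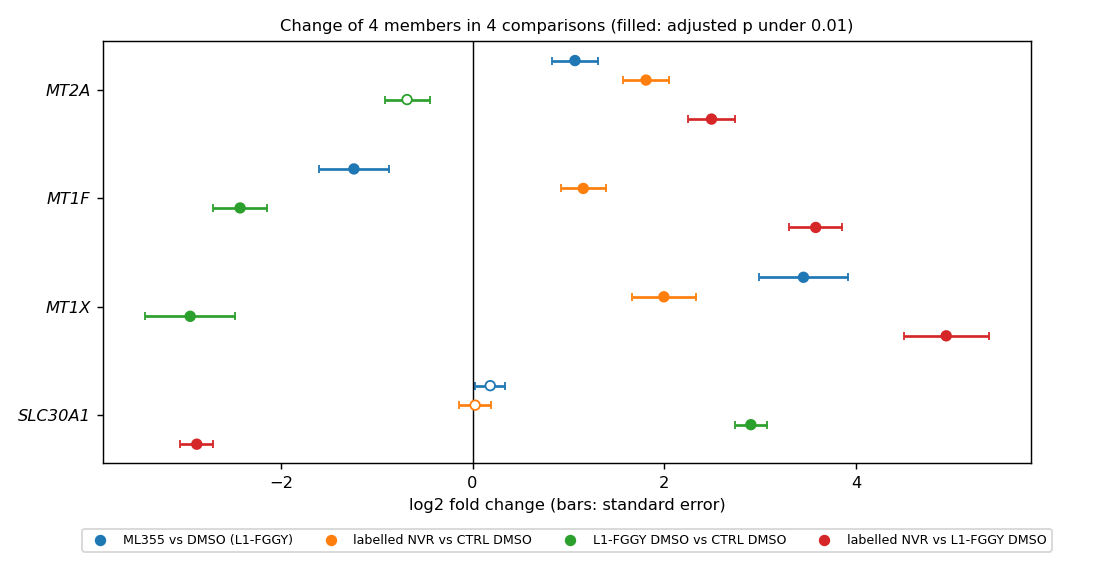
Log2 fold change of *MT2A*, *MT1F*, *MT1X* and *SLC30A1* in the 4 comparisons, with the standard error as a bar and filled points where the edgeR adjusted p is under 0.01. *MT1F* lies at -1.24 with ML355 and 1.15 in the NVR-labelled libraries against CTRL DMSO, and *SLC30A1* lies near 0 in both; *MT1E* is left out because 6 libraries are at 0.

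Of 13 other metallothionein genes and pseudogenes, 9 had a count and 5 passed the filter. With ML355 none of the 5 was called, and 3 were called higher in the comparison of the NVR-labelled libraries with CTRL DMSO, with a median log2 fold change of 1.77 over the 5 against 0.00 over all genes. Over all genes, 44.8% were called with ML355, and 14.5% were called higher in the NVR-labelled libraries against CTRL DMSO. *MT1A*, a metallothionein of the same cluster, had 0 counts in all 6 L1-FGGY libraries with DMSO or ML355. It had 268, 208 and 285 counts in the NVR-labelled libraries and 117, 94 and 84 in CTRL DMSO, a log2 fold change of 1.63 (SE 0.28, adjusted p = 0.000662 in edgeR). *MT1A* and *MT1E* were thus found in opposite sets of libraries. *MT3*, known as the brain metallothionein, also had 0 counts in L1-FGGY cells with DMSO or ML355, 20 to 30 in the NVR-labelled libraries and 6 to 14 in CTRL DMSO, where its log2 fold change of 1.77 did not pass (SE 0.51, adjusted p = 0.0149 in edgeR). The pseudogenes *MT1DP* (log2 fold change 2.01, edgeR adjusted p = 0.00868) and *MT1P1* (log2 fold change 2.88, edgeR adjusted p = 0.00746) were the other calls, on at most 47 and 13 counts per library, and *MT1XP1* was not called (edgeR adjusted p = 0.0419).

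**Figure D4:**
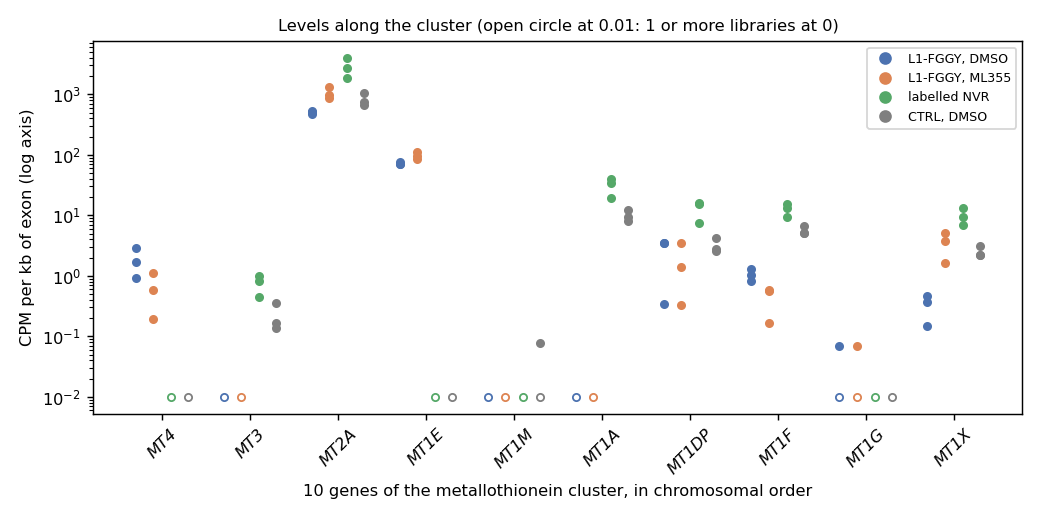
Levels of 10 genes of the metallothionein cluster in chromosomal order, in CPM per kb of exon on a log axis, with 1 point per library and an open circle at 0.01 where at least 1 library was at 0. *MT2A* is the highest in every group, *MT1E* is seen only in L1-FGGY cells with DMSO or ML355, and *MT1A* and *MT3* only in the other 6 libraries.

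Genes around the cluster moved in both directions. Of 9 neighbours tested, 2 rose and 1 fell with ML355 (median log2 fold change 0.26), and 3 were higher and 2 lower in the NVR-labelled libraries than in CTRL DMSO (median 0.03). Calls over all genes were 44.8% with ML355 and 29.8% in the NVR-labelled libraries against CTRL DMSO. *HERPUD1*, an endoplasmic reticulum stress gene, rose by 2.27 on the log2 scale with ML355 (SE 0.12, adjusted p = 4.31e-10 in edgeR), and *NUDT21*, a factor of mRNA 3′ end formation, by 0.48 (SE 0.10, adjusted p = 0.000551 in edgeR). *NUP93*, a nuclear pore component, was lower in the NVR-labelled libraries at -0.93 (SE 0.10, adjusted p = 2.09e-06 in edgeR), as was *OGFOD1* at -0.64 (SE 0.11, adjusted p = 0.000338 in edgeR).

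*MTF1*, the factor that switches on metallothionein genes, was at 19.1, 19.1 and 21.2 CPM in L1-FGGY cells with DMSO and at 29.3, 36.8 and 32.4 CPM with ML355. It was at 9.36, 10.0 and 8.07 CPM in the NVR-labelled libraries and 9.13, 10.8 and 12.8 CPM in CTRL DMSO. *MTF1* rose with ML355 by 0.73 on the log2 scale (SE 0.14, adjusted p = 0.000404 in edgeR). In the libraries labelled NVR its log2 fold change against CTRL DMSO was -0.25 (SE 0.15, adjusted p = 0.188 in edgeR), and the 2 changes differed (difference 0.98, SE 0.21, adjusted p = 0.00107 in edgeR).

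The other zinc carriers moved in both directions. Of 6 other zinc exporters tested, 3 fell and none rose with ML355 (median log2 fold change -0.47 against 0.00 over all genes), and 1 was higher in the NVR-labelled libraries (median -0.05). *SLC30A6*, a subunit of a zinc carrier of the early secretory pathway, fell by 1.28 on the log2 scale with ML355 (SE 0.15, adjusted p = 2.32e-06 in edgeR), from 34.9 to 14.4 CPM. *SLC30A9* fell by 0.45 (SE 0.10, adjusted p = 0.00146 in edgeR), and *SLC30A3*, a carrier of synaptic vesicles, was higher in the NVR-labelled libraries by 0.69 (SE 0.17, adjusted p = 0.00333 in edgeR). Of 12 zinc importers tested, 2 rose and 2 fell with ML355 (median -0.10), and 4 were higher and 2 lower in the NVR-labelled libraries than in CTRL DMSO (median 0.28). The calls among exporters and importers stood beside 44.8% of all genes with ML355 and 29.8% in the NVR-labelled libraries against CTRL DMSO.

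*SLC39A10*, an importer of the plasma membrane, was lower in both comparisons. It was at 122, 108 and 116 CPM in L1-FGGY cells with DMSO and 23.3, 23.2 and 19.1 CPM with ML355, a log2 fold change of -2.39 (SE 0.16, adjusted p = 7.12e-09 in edgeR). It was at 8.46, 10.5 and 7.19 CPM in the NVR-labelled libraries and 23.2, 28.6 and 35.4 CPM in CTRL DMSO, a log2 fold change of -1.73 (SE 0.17, adjusted p = 9.23e-07 in edgeR). Neither pair of groups overlapped. *SLC39A4*, another zinc importer, was higher in both comparisons. Its log2 fold change was 1.14 with ML355 (SE 0.26, adjusted p = 0.00131 in edgeR). In the NVR-labelled libraries against CTRL DMSO it was 1.25 (SE 0.22, adjusted p = 0.000342 in edgeR). *SLC39A7*, which releases zinc from the endoplasmic reticulum, rose with ML355 by 0.86 on the log2 scale (SE 0.12, adjusted p = 1.90e-05 in edgeR), and *SLC39A11* was higher in the NVR-labelled libraries by 0.78 (SE 0.12, adjusted p = 7.58e-05 in edgeR).

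Of 10 copper handling genes tested, 2 rose and 2 fell with ML355 (median log2 fold change -0.03), and 3 were higher and 1 lower in the NVR-labelled libraries (median 0.22). Over all genes, 44.8% were called with ML355 and 29.8% in the NVR-labelled libraries against CTRL DMSO. The copper exporter *ATP7A* fell by 1.73 on the log2 scale with ML355 (SE 0.15, adjusted p = 8.09e-08 in edgeR) and the copper importer *SLC31A1* rose by 0.87 (SE 0.10, adjusted p = 2.52e-06 in edgeR). *CCS*, the copper chaperone of superoxide dismutase, was higher in the NVR-labelled libraries by 1.29 (SE 0.21, adjusted p = 0.000136 in edgeR), and *SCO1*, which delivers copper to cytochrome oxidase, was lower at -0.68 (SE 0.10, adjusted p = 3.96e-05 in edgeR).

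Stress genes that metals are known to induce, and glucocorticoid response genes, were counted beside them. The share of all genes called was 44.8% with ML355 and 29.8% in the NVR-labelled libraries against CTRL DMSO. Of 12 stress genes tested, 4 rose and 1 fell with ML355 (median log2 fold change 0.26), and 3 were higher and 3 lower in the NVR-labelled libraries (median -0.27). The heat shock genes *HSPA1B* and *DNAJB1* rose with ML355 by 3.35 (SE 0.39, adjusted p = 2.61e-06 in edgeR) and 2.60 (SE 0.19, adjusted p = 2.1e-08 in edgeR). *HSPA1B* was also higher in the NVR-labelled libraries against CTRL DMSO, by 1.98 (SE 0.38, adjusted p = 0.000619 in edgeR). There *DNAJB1* did not pass (log2 fold change 0.04, SE 0.18, adjusted p = 0.896 in edgeR). *HSPA1B*, which has a near-identical copy, was at 615, 138 and 623 CPM in replicates 1 to 3 of ML355. Replicate 2 was thus lowest, as it was for *MT1F* and *MT1X*, whereas *MT2A* and *MT1E* were lowest in replicate 3. *OSGIN1*, an oxidative stress response gene, was higher in the NVR-labelled libraries by 1.02 (SE 0.17, adjusted p = 0.000151 in edgeR), and the cystine carrier *SLC7A11* was lower at -0.70 (SE 0.13, adjusted p = 0.000427 in edgeR). Of 9 glucocorticoid response genes tested, 5 rose and 1 fell with ML355 (median log2 fold change 1.05), and 2 were higher and 2 lower in the NVR-labelled libraries (median 0.00). The clock gene *PER1* rose with ML355 by 3.24 (SE 0.13, adjusted p = 3.03e-11 in edgeR) and *TSC22D3* by 1.49 (SE 0.11, adjusted p = 2.86e-08 in edgeR). *PER1* was also higher in the NVR-labelled libraries, at 117 ± 1.13 against 76.6 ± 1.83 CPM in CTRL DMSO (SD, n = 3 each). *SGK1* of the same list was lower with ML355, at 74.5 ± 3.70 against 153 ± 12.2 CPM (SD, n = 3 each). *FKBP5* did not pass with ML355 (log2 fold change -0.26, SE 0.16, adjusted p = 0.193 in edgeR). *ERRFI1* and *FKBP5* were lower in the NVR-labelled libraries, at -1.23 (SE 0.16, adjusted p = 1.89e-05 in edgeR) and -0.96 (SE 0.15, adjusted p = 0.000103 in edgeR).

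The genes whose log2 CPM followed *MT2A* most closely over the 12 libraries were *RPL4* (Pearson r = 0.993), *SF3B6* (r = 0.993) and *COX7A2* (r = 0.984), which encode a ribosomal protein, a splicing factor and a subunit of cytochrome oxidase. Within the 6 L1-FGGY libraries with DMSO or ML355 the values were 0.987, 0.986 and 0.928, and within the other 6 libraries 0.995, 0.994 and 0.995. These genes changed less than *MT2A* did. *RPL4* had a log2 fold change of 0.64 in the NVR-labelled libraries against CTRL DMSO (SE 0.15, adjusted p = 0.00247 in edgeR) and 0.44 with ML355 (SE 0.15, adjusted p = 0.0176 in edgeR). For *SLC30A1* the closest genes were *SIK1* (r = 0.997) and *HIPK3* (r = 0.996). Within the 6 L1-FGGY libraries with DMSO or ML355 their values were 0.882 and 0.801, and within the other 6 libraries 0.958 and 0.960. The libraries of a group share a treatment and each set of 6 holds 2 groups, so that these correlations describe the libraries and carry no test.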

How the data were processed

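RNA of 12 cultures labelled NCI-H520, in 4 groups of 3, was analysed. Reads were mapped by the authors on hg38 (STAR 2.5.3a) and assigned to genes with HTSeq 0.11.2, as the methods and the submitters' processing notes give it, and deposited whole-number counts without normalization. The annotation release, strand setting and handling of multi-mapping reads are not given in the sources used here. The labels name a TruSeq kit where the methods name NEB. The control columns are named only DMSO and were read as CTRL DMSO. Of 58302 gene rows, 57532 were matched to GENCODE 44.

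The counts were fitted in R 4.3.3 with edgeR 4.0.16 (filterByExpr, TMM, a robust quasi-likelihood model with 1 mean per group over all 12 libraries, and its F test with Benjamini-Hochberg adjustment over all genes tested, called under 0.01). The SE was derived from the log2 fold change and its F statistic. The 95% intervals used the normal distribution and are therefore narrower than the F test would give. CPM per kb used the merged exons of GENCODE. The floor was 3 counts per library, and log2 CPM used a prior count of 2. Total counts of 16242082 to 27004768 put this floor at 0.185 to 0.111 CPM. Chi-square values of replicate pairs showed no library deposited in duplicate. The fit was tested on simulated data. A first criterion of recovery was missed and was replaced after this was seen. Recovery was lower among genes of low mean count over all libraries than among the others. The simulation gave each gene the same base level in all groups. The low counts of *MT1F* and *MT1X* in L1-FGGY cells were therefore not simulated.

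The members and gene lists were chosen with earlier results of these data known. Genes named beside the members were the other metallothionein genes past the filter, *MTF1*, at most 2 called genes of each list, taken by lowest adjusted p, in each of the ML355 and NVR against CTRL comparisons, and the 3 closest to *MT2A* and to *SLC30A1* by correlation, of which 1 is not reported here. Named outside this rule were *MT1B*, *MT1H*, *MT4*, *SGK1* and *SLC39A4*. Markers and *FGGY* check the labels. *MT1E* has no fold change where both groups were at 0. The comparison by exon length was added after the data were seen. Other settings tried were DESeq2 1.42.0, limma 3.58.1 with voom, other scalings, filters and thresholds, fits of only the groups compared, a replicate block and each library left out. Figures were drawn with matplotlib 3.10.9.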

Additional observations from a re-analysis of the deposited data

Results flagged for a closer look

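*MT1F* was singled out because its change differed between the 2 inhibitor comparisons, by the test of the difference itself. The ML355 change minus that of the libraries labelled NVR was -2.39 on the log2 scale (standard error 0.43, edgeR adjusted p = 0.000282), and it ranged from -2.66 to -2.01 over the alternatives. *MT1F* had 6 to 47 counts per library in L1-FGGY cells, and both DMSO groups enter the difference. Groups of 3 libraries are too small for a test of single outlying libraries.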

How the results depend on the processing

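Of 461 recomputed log2 fold changes of members, 433 kept their direction and side of the threshold, 15 lost the call, 9 gained it and 4 turned sign. The 4 that turned were all of *SLC30A1*, which was not called: against CTRL DMSO the libraries labelled NVR gave -0.12 under library size alone, and from -0.13 to 0.19 with each library left out (below 0 without CTRL DMSO replicate 1 or NVR replicate 2). The difference between the inhibitor changes ran from -0.0165 to 0.30 with each library left out, below 0 without NVR replicate 3. The cause was not tested. With ML355, the adjusted p of *MT1E* ran from 0.00108 to 0.0587 over the alternatives and that of *MT1F* from 0.000108 to 0.0409.

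At least 10 counts in every library left 2 members to test, *MT2A* and *SLC30A1*, and called 1 with ML355, 1 in the NVR-labelled libraries against CTRL DMSO, 1 between the DMSO groups, 2 in the NVR-labelled libraries against L1-FGGY cells with DMSO, and 0 for the difference between the inhibitors. In the main fit, 44.8%, 29.8%, 68.7%, 73.6% and 34.1% of all genes were called in these comparisons, in the same order. With no filter the difference called 2 members, *MT1F* and *MT1X*. Leaving out each library gave 2 to 4 members with ML355 (2 without L1-FGGY DMSO replicate 1 or 3 or ML355 replicate 2), 3 each time in the NVR-labelled libraries against CTRL DMSO, 4 to 5 between the DMSO groups and 1 to 2 for the difference (2 without ML355 replicate 2 or NVR replicate 2). Genes called in the NVR-labelled libraries against CTRL DMSO ran from 3506, without CTRL DMSO replicate 2, to 6106, and with ML355 from 6852 to 8658. Asking also for an absolute log2 change of 1 or more left 4590 genes with ML355 and 2344 in the NVR-labelled libraries. The summed metallothionein level in L1-FGGY cells with DMSO was 586 CPM under library size alone against 541.

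Library size alone shifted the median log2 fold change of all genes to -0.13 with ML355 and -0.15 in the NVR-labelled libraries against CTRL DMSO. Deviations of log2 CPM from the group mean correlated at -0.355 to 0.168 between same-numbered libraries of the groups compared. The numbers were therefore not taken to pair the libraries. The replicate block called 3 members with ML355, 3 in the NVR-labelled libraries, 4 between the DMSO groups, 5 in the NVR-labelled libraries against L1-FGGY cells and 1 for the difference. Of all 17849 genes tested, it called 7583, 4754, 11979, 12874 and 5649 in the same order. Under the block *MT1E* was the member no longer called with ML355 (adjusted p = 0.0101).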
